A study of Mus musculus with 4 samples.

Results

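The 10 genes described here, Acly, Acaca, Fasn, Elovl6, Scd1, Me1, Gpam, Dgat2, Srebf1 and Thrsp, encode the core of de novo lipogenesis and triglyceride synthesis and were chosen by name for their role in the pathway, with earlier results of these data known. All 10 were among the 55291 gene symbols counted in mouse pancreas, and all 10 passed the filter on low counts that left 19134 genes. RNA of 4 libraries was sequenced, 2 labelled control and 2 labelled knockout. Both groups carried the transgene Pdx1-Cre, whose recombinase acts in the embryonic cells that give rise to the pancreatic epithelium. The controls were Pdx1-Cre+, poh1f/+, with 1 floxed copy of poh1, and the knockouts Pdx1-Cre+, poh1f/f, with 2, so that the label contrast is between recombination of 1 copy and of both in those cells. No wild-type or Cre-free group was analysed here, and the labels give neither age nor sex, nor whether the libraries were made from different mice. The p-values therefore rest on the variation among the 4 libraries, part of which may be technical.

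De novo lipogenesis turns carbon from sugars into fat. Acly makes cytosolic acetyl-CoA from citrate, Acaca carboxylates it to malonyl-CoA, and Fasn builds palmitate with reducing power that Me1 helps to supply. Elovl6 lengthens the product and Scd1 puts a double bond in it. Gpam starts glycerolipid assembly on glycerol-3-phosphate and Dgat2 adds the last acyl chain of a triglyceride. Srebf1 encodes the transcription factor SREBP-1, which together with insulin signalling, LXR and ChREBP drives these enzymes, and Thrsp encodes Spot 14, a small protein of lipogenic tissues. White fat, liver and lactating mammary gland express the whole set strongly, and fat cells can accumulate between the lobules of a damaged pancreas.

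Values are CPM, read counts on a common scale of library size set with edgeR's TMM method. Total counts ran from 22875618 to 27849730 per library, so that 1 count was worth 0.0342 to 0.0455 CPM. Psmd14, the current name of poh1, was at 61.6 and 52.9 CPM in controls against 65.9 and 65.2 CPM under the knockout label (log2 fold change 0.20 ± 0.11 SE, edgeR adjusted p = 0.259). The RNA of the targeted gene was thus not lower under the knockout label, and every direction below is one between labels. Acinar markers, which define the labelled tissue, summed to 8399 and 1899 CPM over 9 genes in controls against 174 and 508 CPM under the knockout label, where Amy2a5 was at 0 counts. Fibroblast markers, over 7 genes, summed to more, 24279 and 28426 CPM in controls against 10245 and 8844 CPM under the knockout label. Duct markers summed to 2249 and 1843 against 492 and 621 CPM, and islet markers to 1813 and 1038 against 446 and 148 CPM. Macrophage markers summed to 3018 and 2873 against 2172 and 1935 CPM. Lymphocyte markers summed to 122 and 85 CPM in controls against 1698 and 1268 CPM under the knockout label. Enterocyte markers, a sign of intestinal tissue, summed to 536 CPM in knockout replicate 2 and to between 11.6 and 34.2 CPM in the other 3 libraries. In RNA of whole tissue, more cells of a type and more RNA per cell cannot be told apart.

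The windows around the transcription starts are shown because most members moved together. RefSeq (GRCm38.p6) gave 12 start regions of 300 bases, from 250 before to 50 after the start, for 8 members, all but Scd1 and Dgat2. Shown are the windows of Fasn, Thrsp, Gpam and Srebf1, whose RNA rose, and of Acly, whose RNA did not pass the test. These 5 were picked because each holds a CCAAT box, so they say nothing of how the box relates to the change in RNA. The CCAAT box, bound by NF-Y, is in capitals on either strand (CCAAT or ATTGG), 5′ to 3′ along the gene.

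Fasn (chr11:120824498-120824797, minus strand): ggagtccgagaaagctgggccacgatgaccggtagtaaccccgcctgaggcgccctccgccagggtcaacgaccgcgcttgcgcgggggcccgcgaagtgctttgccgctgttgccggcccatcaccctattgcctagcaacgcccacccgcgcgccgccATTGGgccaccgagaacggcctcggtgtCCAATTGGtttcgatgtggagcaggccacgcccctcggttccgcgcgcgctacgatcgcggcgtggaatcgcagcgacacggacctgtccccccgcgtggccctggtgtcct
Thrsp (chr7:97417501-97417800, minus strand): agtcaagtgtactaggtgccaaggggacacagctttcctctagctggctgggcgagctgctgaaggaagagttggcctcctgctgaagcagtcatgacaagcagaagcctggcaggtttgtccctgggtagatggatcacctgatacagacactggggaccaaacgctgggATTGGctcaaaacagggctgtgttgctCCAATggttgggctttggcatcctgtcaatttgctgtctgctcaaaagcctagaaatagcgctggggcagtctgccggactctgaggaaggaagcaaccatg
Gpam (chr19:55127189-55127488, minus strand): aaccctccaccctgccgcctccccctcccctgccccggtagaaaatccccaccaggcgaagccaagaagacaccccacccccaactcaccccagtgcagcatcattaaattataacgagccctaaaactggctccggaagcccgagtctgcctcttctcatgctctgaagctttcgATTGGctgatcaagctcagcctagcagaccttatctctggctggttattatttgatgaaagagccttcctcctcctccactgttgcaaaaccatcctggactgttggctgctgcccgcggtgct
Srebf1 (chr11:60210422-60210721, minus strand): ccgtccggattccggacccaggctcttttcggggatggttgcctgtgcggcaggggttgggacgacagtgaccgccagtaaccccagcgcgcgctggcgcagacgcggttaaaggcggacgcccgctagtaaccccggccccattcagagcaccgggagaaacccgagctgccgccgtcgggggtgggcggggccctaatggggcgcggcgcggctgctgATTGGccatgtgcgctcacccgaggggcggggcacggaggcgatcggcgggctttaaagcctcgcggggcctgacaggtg
Acly (chr11:100527951-100528250, minus strand): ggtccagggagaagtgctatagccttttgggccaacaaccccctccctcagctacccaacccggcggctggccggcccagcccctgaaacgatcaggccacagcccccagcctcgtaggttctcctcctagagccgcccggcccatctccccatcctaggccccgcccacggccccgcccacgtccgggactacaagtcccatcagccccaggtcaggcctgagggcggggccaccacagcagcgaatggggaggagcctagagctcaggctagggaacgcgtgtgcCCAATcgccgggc

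Fasn had 3 CCAAT boxes, beginning at −90, −62 and −59 from the start, of which the last 2 overlap on opposite strands. Thrsp had 2, at −79 and −52 on opposite strands, and Gpam had 1 at −74 in the window shown and 0 in its other window. The Srebf1 window shown, 1 of 3 for this gene, had 1 at −30. Another of the 3 had 1 at −166, and the remaining window had 0. The single CCAAT box of Acly lay after the start, at 38. The windows of Acaca and Elovl6, whose RNA also rose, held 0 CCAAT boxes. The start used for Acaca, at 84195438, lay inside the gene, which begins at 84129672. The region around that first position was not searched. Of the 2 windows of Me1, whose RNA did not pass, 1 held a CCAAT box at −208. A CCAAT box occurred in 7 of the 12 windows, against 37.4% of 32544 mouse start regions of this length. The GC box GGGCGG, searched on both strands, occurred in 5 of the 12 windows (of Acly, Me1, Gpam and Srebf1), against 35.9% of all windows. No member window held the sterol response element letters TCACNCCAC (1.24% of all windows), the E-box CACGTG (7.17%) or TATAAA (13.6%), searched on both strands. These are matches of letters in windows of fixed length and not measurements of binding.

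Of the 10 genes 8 were higher in the libraries labelled knockout, and Acly and Me1 did not pass the test (edgeR quasi-likelihood, Benjamini-Hochberg adjusted p under 0.05). Over all tested genes 12.1% were called higher and 9.95% lower, so that 54.9% of calls were higher, against 64.9% without TMM scaling, where the median of all genes was shifted by 0.0987. Summed over the 10 genes, RNA went from 662 and 1040 CPM in controls to 3406 and 2733 CPM in the libraries labelled knockout. This was a mean of 851 ± 267 against 3069 ± 476 CPM (SD, n = 2 each), or 3.61-fold. The median log2 fold change of the 10 genes was 1.58, against −0.002 over all tested genes. The groups did not overlap for the 8 called genes, as for 34.4% of all tested genes in that direction. Scd1, Dgat2 and Thrsp rose by at least 4-fold, a size that 5.12% of all genes reached with a call.

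**Figure D1:**
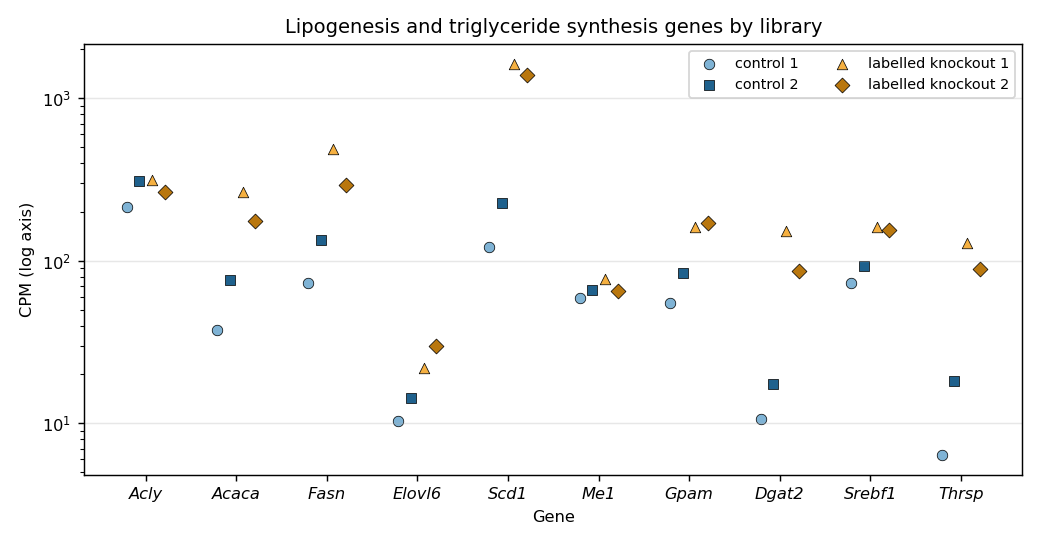
CPM of the 10 genes (log axis) in each of the 4 libraries, with 1 point per library. For 8 genes both libraries labelled knockout lie above both controls, whereas for Acly and Me1 the groups overlap.

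The first enzymes of the pathway parted from each other. Acly (chromosome 11, 100476353 to 100528000, GRCm38) was at 216 and 308 CPM in controls against 314 and 266 CPM under the knockout label. The groups overlapped, and the log2 fold change was 0.15 ± 0.21 SE and its 95% interval reached from −0.38 up to 0.68 (edgeR adjusted p = 0.647). Acaca (chromosome 11, 84129672 to 84401651), the enzyme that commits acetyl-CoA to fatty acids, went from 37.7 and 76.3 CPM to 266 and 177 CPM. Both libraries labelled knockout were higher than both controls (1.96 ± 0.39, edgeR adjusted p = 0.0263). Fasn (chromosome 11, 120805846 to 120824547) went from 73.1 and 135 CPM to 487 and 294 CPM, again without overlap (1.91 ± 0.38, edgeR adjusted p = 0.0274). Me1 (chromosome 9, 86581371 to 86695953), malic enzyme, was at 59.1 and 66.1 CPM in controls against 77.7 and 65.3 CPM under the knockout label. Its interval ran from −0.13 to 0.52 around 0.19 (edgeR adjusted p = 0.325), and the groups overlapped. Of its relatives, the mitochondrial malic enzymes, Me2 (0.72 ± 0.23) and Me3 (−0.20 ± 0.37) did not pass (edgeR adjusted p = 0.0813 and 0.726). Without control replicate 2 Acaca was at 2.56 (edgeR adjusted p = 0.0365). Without control replicate 1 neither Acaca (1.54, edgeR adjusted p = 0.0838) nor Fasn (1.53, 0.111) was called, and the estimate for Acly was −0.09; 4 members (Scd1, Gpam, Srebf1 and Thrsp) and 3.44% of all tested genes were then called higher.

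Of the enzymes that modify the chain, the desaturase rose by more than the elongase. Scd1 (chromosome 19, 44394455 to 44407879) went from 121 and 227 CPM to 1637 and 1399 CPM, 8.72-fold (3.12 ± 0.34, edgeR adjusted p = 0.00724). The lower of the libraries labelled knockout held 6.16 times as much as the higher control, the widest such gap among the 10 genes. Elovl6 (chromosome 3, 129532355 to 129638495), which lengthens palmitate, went from 10.3 and 14.4 CPM to 22 and 30.1 CPM (1.08 ± 0.25, edgeR adjusted p = 0.0377). Unlike Scd1, it was higher in knockout replicate 2, the library with enterocyte RNA, than in knockout replicate 1. Elovl6 was also called without that library (0.83, edgeR adjusted p = 0.0431). Leaving out control replicate 1 (edgeR adjusted p = 0.155) or control replicate 2 (0.0673) ended its call. The relatives of Scd1 lie in the same cluster on chromosome 19 and resemble it in sequence, so reads may have been split among them. Scd2, the desaturase of brain and many other tissues, was at 216 and 220 CPM in controls against 173 CPM in both libraries labelled knockout (−0.33 ± 0.10, edgeR adjusted p = 0.075). Scd3 and Scd4 stayed between 0.179 and 1.36 CPM and did not pass the test (edgeR adjusted p = 0.763 and 0.139). Elovl5, an elongase of polyunsaturated fatty acids, did not pass either (0.10 ± 0.10, edgeR adjusted p = 0.491).

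The first and the last step of triglyceride assembly both rose. Gpam (chromosome 19, 55067268 to 55127238), the mitochondrial glycerol-3-phosphate acyltransferase, went from 54.9 and 84 CPM to 161 and 171 CPM (1.25 ± 0.22, edgeR adjusted p = 0.019). Dgat2 (chromosome 7, 99153658 to 99182719) went from 10.6 and 17.5 CPM to 152 and 86.2 CPM, 8.45-fold (3.08 ± 0.38, edgeR adjusted p = 0.00871). The libraries labelled knockout differed from each other for Dgat2, yet each was above both controls. Dgat2 was at 2.76 when control replicate 1 was left out, and missed the threshold (edgeR adjusted p = 0.0678), while Gpam was still called (0.98, 0.0393). Other enzymes of the same steps moved unevenly. Gpat3, a glycerol-3-phosphate acyltransferase of fat cells, rose by 2.19 ± 0.24 (edgeR adjusted p = 0.00713), whereas Gpat4 (0.00 ± 0.09, edgeR adjusted p = 0.987; its sign differed among the scalings) and Gpat2 (edgeR adjusted p = 0.598) did not pass. Dgat1, the other enzyme of the final step and no sequence relative of Dgat2, rose from 28.2 and 32.5 CPM to 88.9 and 95.5 CPM (1.60 ± 0.12, edgeR adjusted p = 0.00291).

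Srebf1, the transcription factor, and Thrsp both rose. Srebf1 (chromosome 11, 60199089 to 60222581) went from 73.4 and 92.9 CPM to 161 and 155 CPM, 1.90-fold (0.93 ± 0.14, edgeR adjusted p = 0.0145). The counts are per gene and do not separate its 1a and 1c transcripts, and its exons share 109 bases with Rai1 on the opposite strand. Thrsp (chromosome 7, 97412938 to 97417730) went from 6.37 and 18.3 CPM to 129 and 88.6 CPM, 8.77-fold (3.13 ± 0.52, edgeR adjusted p = 0.0175). It had the widest spread within controls, with 2.88 times as much in replicate 2 as in replicate 1. Without control replicate 2 its log2 fold change was 4.09, and without control replicate 1 it was 2.57; it was called in both cases (edgeR adjusted p = 0.0255 and 0.0481). Mid1ip1, the relative of Thrsp, moved the other way, from 41 and 38.3 CPM to 28.6 and 26.7 CPM (−0.52 ± 0.12, edgeR adjusted p = 0.0369). That call was lost when any library was left out (edgeR adjusted p from 0.0663 to 0.192) and without scaling (0.0563).

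**Figure D2:**
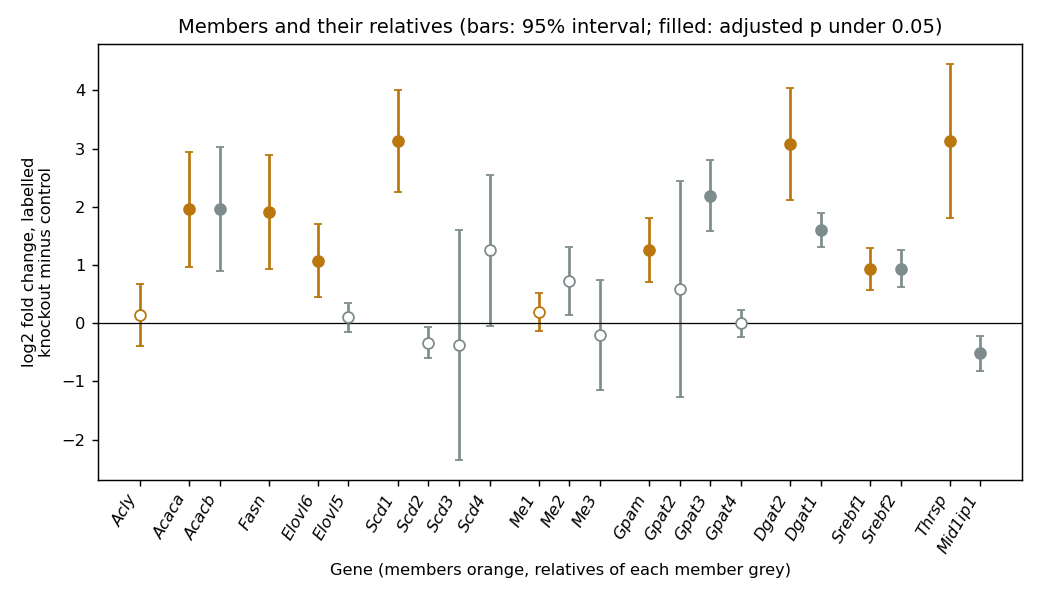
Log2 fold change, libraries labelled knockout minus controls, of the 10 genes (orange) and their relatives (grey), with 95% intervals from the edgeR fit (n = 2 per group), filled where the adjusted p was under 0.05. Scd1, Dgat2 and Thrsp are above 3, Acly and Me1 span 0, and Mid1ip1 lies below 0. Dgat1, also in grey, is the other enzyme of the final step and no sequence relative of Dgat2.

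Because the genes moved by different amounts, the make-up of the set changed. Acly gave the largest share of the summed CPM in controls, with 32.6% and 29.6%, against 9.21% and 9.74% under the knockout label. Scd1 gave 18.3% and 21.8% in controls against 48.1% and 51.2% under the knockout label. The share of Me1 went from 8.92% and 6.35% to 2.28% and 2.39%, and that of Fasn overlapped between groups, with 11% and 13% against 14.3% and 10.8%. These shares sum to a fixed whole, so a larger share of 1 gene lowers the others.

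**Figure D3:**
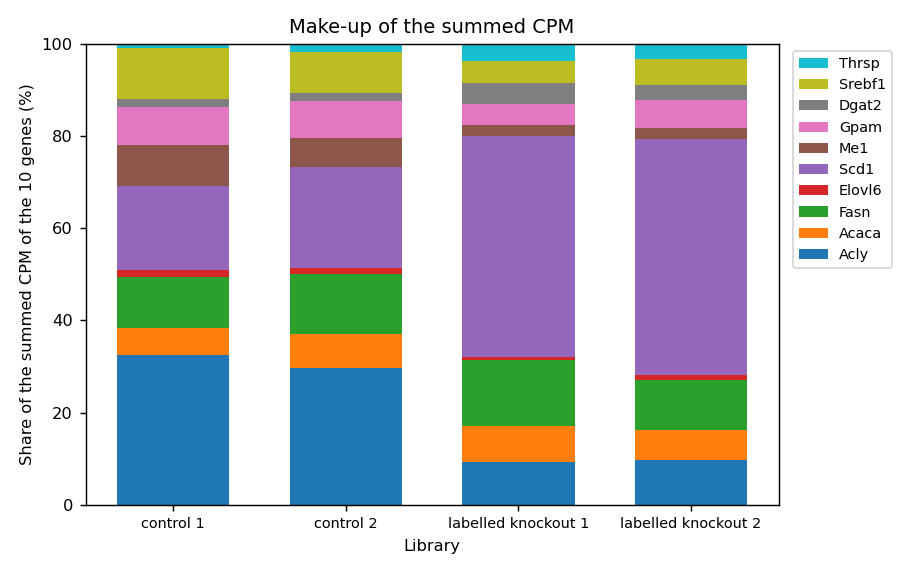
Share of the summed CPM of the 10 genes given by each gene, in percent, for each library. Acly is the largest segment in both controls and Scd1 in both libraries labelled knockout, at 48.1% and 51.2%.

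Levels can be compared between genes only per length, here as CPM per kilobase of exon (GENCODE M21 gene models). In controls the mean level was highest for Acly (49.6 CPM per kilobase) and Scd1 (35.6), whose ranges overlapped. Me1 (16.3) and Srebf1 (14.8) followed, also overlapping, and stood above Gpam (10.4). From Gpam down through Fasn (9.52), Thrsp (5.64), Dgat2 (4.56), Acaca (3.34) and Elovl6 (1.92), each range overlapped that of its neighbour. In the libraries labelled knockout Scd1 was first with 310 CPM per kilobase and stood apart from Acly (54.9). Acly, Thrsp (49.6), Dgat2 (38.6), Fasn (35.7) and Srebf1 (28) overlapped from neighbour to neighbour. Gpam (24.9), Me1 (18.6), Acaca (13) and Elovl6 (4.05) each stood apart from the next, so Me1 stood behind 2 members in controls and behind 7 under the knockout label.

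White adipocyte markers moved with the set. The counts of calls that follow are to be read against 12.1% of all tested genes called higher and 9.95% lower. Of 9 markers tested 6 rose, among them the fat cell hormone Adipoq (2.88 ± 0.60, edgeR adjusted p = 0.0298) and adipsin, Cfd (2.46 ± 0.63, edgeR adjusted p = 0.0486), 0 fell and 3 did not pass, with a median of 2.74. When control replicate 1 was left out, Adipoq was at 2.26 and missed the threshold (edgeR adjusted p = 0.0538) and Cfd was at 1.80 (0.0441). Leaving out control replicate 2 gave 4.0 for Adipoq and 3.71 for Cfd. Their summed level was 296 and 709 CPM in controls against 2868 and 2553 CPM under the knockout label, and none of the 9 was at or under 3 counts in any library. Control replicate 2 exceeded replicate 1 for 10 of the 10 lipogenic genes, by 1.12 to 2.88 times, and for 7 of the 9 markers. Knockout replicate 1 exceeded replicate 2 for 8 of the 10 genes (all but Elovl6 and Gpam) and for 6 of the 9 markers. The share of all tested genes with either order was not counted, so these counts have no background to be read against. Of hepatocytes, another strongly lipogenic cell type, the defining gene Alb stayed between 0.479 and 2.18 CPM. The 8 hepatocyte markers summed to 364 CPM in knockout replicate 2 and to between 9.35 and 31.4 CPM elsewhere. Most of the 364 CPM came from Apob (190 CPM) and Apoa1 (167 CPM), in the library with enterocyte RNA. Alb was at 0.479 CPM in that library. Ttr, which gave most of the hepatocyte marker sum in both controls, was called lower (−2.45 ± 0.38, edgeR adjusted p = 0.0151). It went from 26.3 and 15.3 CPM in controls to 4.73 and 2.88 CPM under the knockout label. Brown adipocyte markers summed to 26.2 and 36 CPM in controls against 38.6 and 55.3 CPM under the knockout label, and 4 of 7 were called higher. The brown markers differed among themselves. Ucp1, the uncoupling protein of brown fat, went from 0 and 0.084 CPM to 7.77 and 17.8 CPM (called), whereas Prdm16, the most abundant of them in controls, was at 19.4 and 29.2 CPM against 14.8 and 16.6 CPM and did not pass (−0.63 ± 0.23, edgeR adjusted p = 0.112), nor did Dio2 (0.00 ± 0.43, 0.998). What part fat cells had in the rise of the 8 called genes was not tested.

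Set against the summed white adipocyte markers of the same library, the 10 genes divided. Acly made up 72.9% and 43.4% of the marker sum in controls against 10.9% and 10.4% under the knockout label. Me1 went from 20% and 9.32% to 2.71% and 2.56%, and Srebf1 from 24.8% and 13.1% to 5.62% and 6.07%. Gpam, Elovl6, Fasn and Acaca were also lower on this scale in both libraries labelled knockout, with Fasn at 24.7% and 19.1% against 17% and 11.5%. Scd1 was higher, at 40.8% and 32% in controls against 57.1% and 54.8% under the knockout label, as was Thrsp (2.15% and 2.58% against 4.49% and 3.47%). Dgat2 overlapped, at 3.58% and 2.47% against 5.3% and 3.38%. Part of the sum was Cebpa, a marker that did not pass the test (0.39 ± 0.14, edgeR adjusted p = 0.1). It gave 131 of 296 CPM in control replicate 1 and 119 of 709 CPM in control replicate 2. Under the knockout label it gave 181 of 2868 and 148 of 2553 CPM. For Scd1 and Thrsp the order depended on the marker. Per unit of Adipoq alone, Scd1 was at 3.93 and 2.22 in controls against 2.8 and 3.52 under the knockout label, and per unit of Plin1 at 7.84 and 3.87 against 3.89 and 4.72, which overlap in both cases. Thrsp was at 0.207 and 0.179 against 0.22 and 0.223 per unit of Adipoq, but lower under the knockout label per unit of Plin1, at 0.413 and 0.312 against 0.306 and 0.299. The 7 genes that were lower against the marker sum were also lower without overlap per unit of Adipoq and of Plin1. These ratios of RNA within a library are given as a description, with no test.

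**Figure D4:**
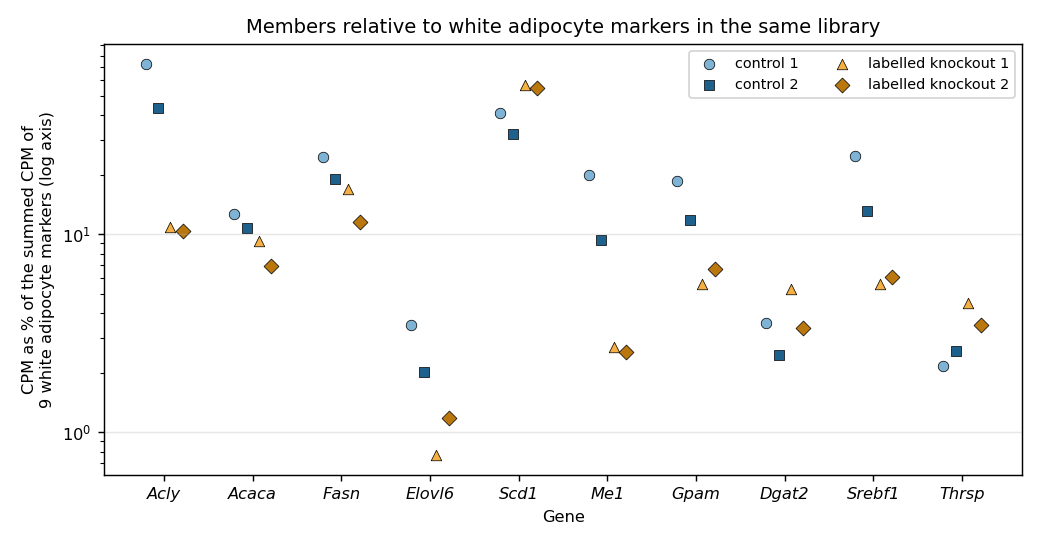
CPM of each of the 10 genes as a percent of the summed CPM of 9 white adipocyte markers in the same library (log axis), with 1 point per library. Scd1 and Thrsp lie higher in both libraries labelled knockout, Dgat2 overlaps and the other 7 lie lower. The order of Scd1 and Thrsp depended on the marker used.

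Beyond the 10 genes, 16 regulators of lipogenic transcription gave 4 rises and 1 fall, with 11 not passing and a median of 0.18. All tested genes were called higher in 12.1% of cases and lower in 9.95%. The genes that rose were Nr1h3, which encodes LXR alpha (1.53 ± 0.10, edgeR adjusted p = 0.00225), Mlxipl, which encodes ChREBP (1.11 ± 0.14, 0.00867), Srebf2, the relative of Srebf1 that drives cholesterol genes (0.94 ± 0.12, 0.0101), and the coactivator Ppargc1b (1.73 ± 0.34, 0.0259). The first 3 were called whichever library was left out, and Ppargc1b missed the threshold when control replicate 1 was left out (edgeR adjusted p = 0.102). The gene that fell was Mid1ip1, described above. Of the genes that hold or cleave the SREBP proteins, 3 that did not pass were chosen after their values were seen: Scap was at −0.29 ± 0.09, Mbtps1 at −0.03 ± 0.15 and Insig1 at 0.52 ± 0.15 (edgeR adjusted p = 0.0736, 0.906 and 0.0628).

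Of 24 other genes of fatty acid synthesis 6 were higher, 3 lower and 15 not passing, with a median of −0.02. Over all tested genes 12.1% were called higher and 9.95% lower, so the falls were near that share. Acsl1, an acyl-CoA synthetase, rose from 50.1 and 110 CPM to 544 and 527 CPM (2.74 ± 0.39, edgeR adjusted p = 0.0123). Acacb, the mitochondrial relative of Acaca, rose by 1.96 ± 0.42 (edgeR adjusted p = 0.0317), about as much as Acaca, and Hsd17b12, a subunit of the elongation system, by 0.56 ± 0.11 (0.0252). Elovl3, an elongase that is also among the brown adipocyte markers, had 0 counts in controls against 41 under the knockout label, at least 11-fold higher against a floor of 3 counts over the control group (edgeR adjusted p = 0.0218), and the list median was −0.02 with it at that bound. The genes that fell were the polyunsaturated desaturases Fads2 (−0.62 ± 0.09, edgeR adjusted p = 0.0126) and Fads1 (−0.47 ± 0.11, 0.0403) and the elongase Elovl1 (−0.40 ± 0.09, 0.0374). Of the genes that supply citrate and NADPH, 3 that did not pass, chosen after their values were seen, were Slc25a1 at 0.24 ± 0.09, G6pdx at 0.08 ± 0.12 and Pgd at −0.25 ± 0.11 (edgeR adjusted p = 0.128, 0.664 and 0.161). The number of calls in the list changed with the library left out, as did the number over all tested genes. Without control replicate 1 the calls of Acacb (edgeR adjusted p = 0.0652), Hsd17b12 (0.1) and Elovl3 (0.075) were lost, those of Fads1 and Elovl1 were lost when any library was left out (0.0504 to 0.219), and that of Fads2 without knockout replicate 2 (0.0512). When control replicate 2 was left out, Acsl1 was at 3.42 and Acacb at 2.71. That also ended the calls of Hsd17b12 (edgeR adjusted p = 0.0806) and Elovl3 (0.0585), and leaving out knockout replicate 2 that of Hsd17b12 (0.133).

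Of 17 other genes of glycerolipid synthesis 6 rose, 1 fell and 10 did not pass, with a median of 0.69. The shares over all tested genes were 12.1% higher and 9.95% lower. Beside Dgat1 and Gpat3, Agpat2, which makes phosphatidic acid in fat cells, went from 28.8 and 33.7 CPM to 70.1 and 63.7 CPM (1.10 ± 0.13, edgeR adjusted p = 0.00785). These 3 genes were called whichever library was left out. The other 3 that rose, given here after their values were seen, were the phosphatidate phosphatase Lpin1 (1.19 ± 0.14) and the sources of glycerol-3-phosphate Gpd1 (2.29 ± 0.36) and Pck1 (3.83 ± 0.86), with edgeR adjusted p = 0.00834, 0.0152 and 0.0361. Leaving out control replicate 1 ended the call of Gpd1 (edgeR adjusted p = 0.0615). Pck1 was called in each case but its value moved, to 3.05 without control replicate 1 and 5.68 without control replicate 2. Lpin3, a lipin of gut and other epithelia, fell by 1.09 ± 0.20 (edgeR adjusted p = 0.0219), a call lost without control replicate 1 (0.12) or control replicate 2 (0.0774).

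Genes of the lipid droplet and of lipolysis rose in 10 of 17 cases, 3 fell and 4 did not pass (median 1.47). Among all tested genes 12.1% were called higher and 9.95% lower. The triglyceride lipase Pnpla2 rose by 1.74 ± 0.23, the hormone-sensitive lipase Lipe by 2.22 ± 0.33 and Fitm2, which helps droplets to bud, by 1.47 ± 0.24 (edgeR adjusted p = 0.0101, 0.0135 and 0.0175). Enzymes that break triglyceride down thus rose beside those that build it. The droplet coat gene Plin1 of fat cells, which is also among the white adipocyte markers, rose by 3.27 ± 0.65 (edgeR adjusted p = 0.0271), with 2.61 when control replicate 1 and 4.54 when control replicate 2 was left out. Plin2, the coat gene of most other cells, fell by 0.93 ± 0.16 (537 and 443 CPM against 237 and 277 CPM, edgeR adjusted p = 0.0192), Plin3, also a broadly expressed coat gene, fell by 0.51 ± 0.11 (0.0332) and Hilpda, an inhibitor of lipolysis, by 0.83 ± 0.18 (0.0332). Without control replicate 1 the list had fewer calls, as had all tested genes. Plin2 (−0.78), Plin3 (−0.39) and Hilpda (−0.66) were then not called. Plin3 was also lost without knockout replicate 1 (edgeR adjusted p = 0.0953) or 2 (0.118), and Hilpda without control replicate 2 (0.0521) or knockout replicate 1 (0.0605).

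Uptake genes rose in 5 of 10 cases, 1 fell and 4 did not pass (median 1.07). For all tested genes the shares were 12.1% higher and 9.95% lower. Those that rose were the lipoprotein lipase Lpl (1.37 ± 0.22, edgeR adjusted p = 0.0155), the fatty acid transporters Cd36 (2.14 ± 0.31, 0.0126) and Slc27a1 (1.11 ± 0.20, 0.0199), the fatty acid carrier Fabp4 (2.13 ± 0.32, 0.0142) and the glycerol channel Aqp7 (3.37 ± 0.71, 0.0308). The carrier Fabp5 fell by 0.93 ± 0.23 (edgeR adjusted p = 0.0466), and the insulin-regulated glucose transporter Slc2a4 did not pass (1.04 ± 0.41, 0.13). Fewer of all tested genes were called without control replicate 1. Lpl and Aqp7 then kept their calls, whereas Cd36 (1.84), Fabp4 (1.78), Slc27a1 (0.94) and Fabp5 (−0.56) did not. Aqp7 was then at 2.64, and at 4.99 when control replicate 2 was left out.

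Of 15 genes of fatty acid oxidation 9 rose, 0 fell and 6 did not pass (median 0.65), where 12.1% of all tested genes were higher and 9.95% lower. DESeq2 called 1 of the 15 lower and limma-voom 0. The dehydrogenase Acadm rose by 0.77 ± 0.10 and the trifunctional protein subunit Hadhb by 0.71 ± 0.11 (edgeR adjusted p = 0.0107 and 0.0134). Cpt1a, the entry step of mitochondria that malonyl-CoA inhibits, was at 291 and 341 CPM in controls against 254 and 229 CPM under the knockout label and did not pass (−0.39 ± 0.14, edgeR adjusted p = 0.105). Without control replicate 1 or control replicate 2 the list had fewer calls, as had all tested genes. Acadm (0.72) and Hadhb (0.72) missed the threshold without control replicate 1. Hadhb (0.72) also missed it without control replicate 2.

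Cholesterol genes, the branch driven by SREBP-2, had 9 of 23 genes higher, 2 lower and 12 not passing (median 0.38). By comparison, 12.1% of all tested genes were called higher and 9.95% lower. The isomerase Idi1 rose by 1.73 ± 0.18 and the sterol reductase Hsd17b7 by 1.40 ± 0.19 (edgeR adjusted p = 0.00662 and 0.0112). Cyp51, a sterol demethylase, fell by 0.89 ± 0.14 (edgeR adjusted p = 0.0162). The list had 2 higher and 0 lower genes without control replicate 1, with Hsd17b7 at edgeR adjusted p = 0.0586 and Cyp51 at 0.0707. Fewer genes were also called higher, in the list and over all tested genes, without control replicate 2 or knockout replicate 2.

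**Figure D5:**
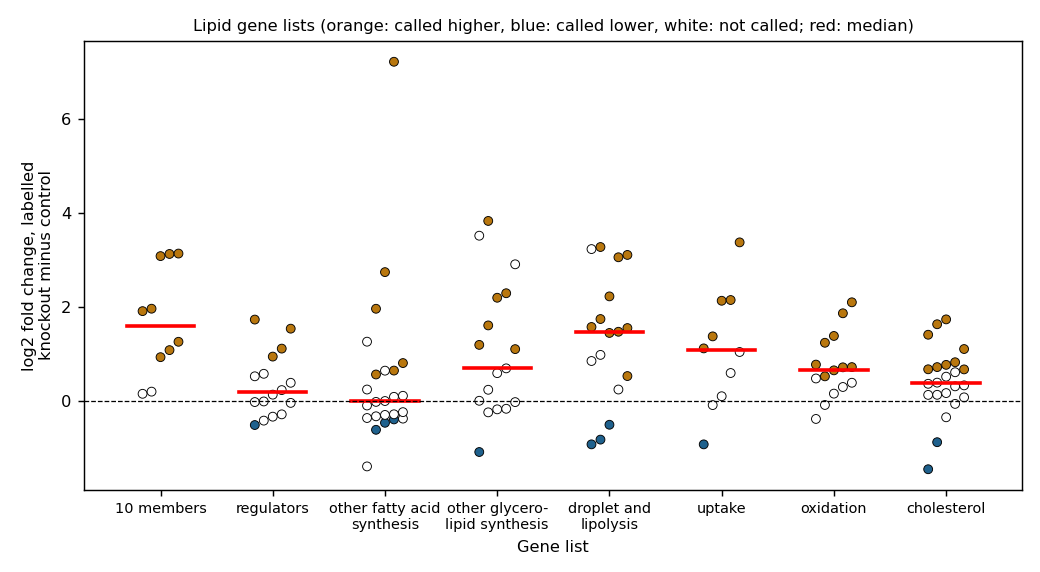
Log2 fold change of each tested gene in the 10 members and 7 other lipid gene lists, with 1 point per gene (orange called higher, blue called lower, white not called), the list median in red and the median of all tested genes as a dashed line. The members' median is 1.58, that of droplet and lipolysis genes 1.47 and that of other fatty acid synthesis genes −0.02. The highest point, Elovl3, is a fitted value of a gene with 0 counts in controls and is not a bound.

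The genes whose pattern over the 4 libraries lay nearest to the mean pattern of the 10 genes were Pfkfb1, Atp2a3, Gfra2, Mgll and Abca8a, out of 11339 genes of at least 10 CPM on average. Nearness was the Euclidean distance between log2 CPM values centred on each gene's mean, and it ran from 0.025 to 0.144 for these 5. Pfkfb1, a regulator of glycolysis and gluconeogenesis, went from 4 and 6.86 CPM to 19.7 and 16.3 CPM. Mgll, which releases the last fatty acid of a triglyceride, went from 48.3 and 83.8 CPM to 215 and 171 CPM. Among the members Fasn (0.402) and Acaca (0.431) lay nearest to that mean, and Thrsp (1.64) and Me1 (1.56) farthest. With 4 libraries many genes can share such a pattern.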

How the data were processed

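The data are 4 RNA libraries of mouse pancreas. The deposited values are raw counts for each gene symbol, in whole numbers, per the file headers. The submitters' processing notes name the aligner STAR 2.7.6a, the counter featureCounts 2.0.1, the build GRCm38, and FastQC 0.11.9, Trim Galore 0.6.6 and SAMtools 1.7 as further tools. The strand setting, annotation release and handling of multiply aligned reads: not given in the sources used here. Sample titles gave groups and replicate numbers. The 10 genes and all lists were chosen with earlier results of these data known.

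The named genes are the members, their relatives, Psmd14, the 3 called genes of smallest p per list and direction (all where at most 5 were called), leading markers and the 5 nearest profiles; others were chosen after their values were seen. Some genes that this rule would name are not reported here. Counts were fitted over all 4 libraries with edgeR 4.0.16 in R 4.3.3 (filterByExpr, TMM, quasi-likelihood test of group, Benjamini-Hochberg over 19134 genes, threshold 0.05). SE is the log2 fold change over the square root of F. The steps were tested on simulated data. Replicates differed beyond counting noise (chi-square over degrees of freedom 46.2 and 32.5). Positions and exon lengths are from GENCODE M21. Alternatives were other scalings, filters and thresholds, DESeq2 1.42.0, limma-voom 3.58.1, a replicate block and leaving out each library; the remaining library of that group is then taken to vary as the other group does. Floors and intervals cover counting or model error only.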

Additional observations from a re-analysis of the deposited data

How the results depend on the processing

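The 8 members called higher stayed called under the other scalings and filters, with DESeq2, with limma-voom and with the replicate block. At an adjusted p under 0.01 the calls were 644 genes higher and 323 lower, 2 members higher, 2 regulators higher and 0 lower, 0 other fatty acid synthesis genes in either direction, 0 glycerolipid genes lower, 0 droplet, uptake or oxidation genes in either direction, and 2 cholesterol genes higher and 0 lower. Without scaling 0 regulators, 1 fatty acid synthesis gene and 0 uptake genes were lower. Uptake genes lower also numbered 0 with a mean count of at least 10 and with limma-voom, and DESeq2 called 1 oxidation gene lower. With the replicate block, 0 regulators, 1 fatty acid synthesis gene, 1 droplet gene, 0 uptake genes and 1 cholesterol gene were lower. In all, 1960 genes were then higher and 1432 lower. The labels do not say whether the replicate numbers pair the samples. Deviations of replicate 1 in the 2 groups correlated at −0.02 across genes. With 2 libraries per group, that value cannot show whether the numbers mark a pairing. Leaving out 1 library gave 702 to 2338 genes higher and 424 to 1696 lower, 4 to 8 members higher, 3 to 5 regulators higher and 0 to 1 lower, 1 to 7 fatty acid synthesis genes higher and 0 to 1 lower, 5 to 8 glycerolipid genes higher and 0 to 1 lower, 5 to 11 droplet genes higher and 0 to 2 lower, 2 to 6 uptake genes higher and 0 to 1 lower, 1 to 8 oxidation genes higher, 2 to 10 cholesterol genes higher and 0 to 1 lower, and a log2 ratio of the members' summed CPM from 1.56 to 2.21. Gpat4, near 0, turned to 0.0059 with DESeq2 size factors and the DESeq2 test, 0.0958 without scaling, 0.0014 with upper-quartile factors and 0.010 with TMM without enzyme, immune receptor and adipocyte genes, and ran from −0.0225 to 0.0201 over the left-out libraries. Over those, Acly ran from −0.0871 to 0.427, Scd3 from −1.93 to 0.35, Gpat2 from −0.0622 to 1.88 and Me3 from −0.56 to 0.28. The cause of these changes was not tested.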

Other observations

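Some lipid genes outside the 10 differed widely between the libraries labelled knockout, and these were singled out after their values were seen. The satiety hormone Lep was at 100 CPM in knockout replicate 1 and at 6.44 CPM in knockout replicate 2, with 1.36 and 2.47 CPM in controls (edgeR adjusted p = 0.0638). Pnpla3, a lipase of liver and fat that SREBP-1 is known to induce, was at 11.7 and 2.23 CPM, with 0.728 and 0.753 CPM in controls (edgeR adjusted p = 0.0536). G0s2, an inhibitor of Pnpla2, was at 44.3 and 16 CPM, with 15.2 and 18.3 CPM in controls (edgeR adjusted p = 0.258). Mogat2, the triglyceride enzyme of gut, was at 1.58 and 15.3 CPM, with 0.455 and 1 CPM in controls (edgeR adjusted p = 0.088), and its higher value lay in the library with enterocyte RNA.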
